A study of Fragaria x ananassa with 4 samples.

Results

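The wall glycosidases described here are 81 strawberry genes whose array annotation names a galactosidase, a xylosidase, an arabinofuranosidase, a beta-glucosidase, a mannosidase, a mannanase or a xylanase. They were taken from the 35116 sequences named on the array by a search of all annotation text for those words, and sequences whose text also named a beta-1,3-glucan, xyloglucan or polygalacturonase activity were left out. The search read only annotation, so no expression value chose a member. Transcripts were measured in the receptacle, the fleshy part of the fruit, of *Fragaria × ananassa* with 4 single-colour arrays, 2 of red ripe and 2 of green unripe receptacle. No other treatment or genotype separated the groups. The labels place the plants in a growth chamber and then a greenhouse, whereas the methods of the study describe field-grown plants of the cultivar Camarosa, a small green stage, pooled fruits and removal of the achenes, the dry seed-bearing fruits on the surface. The labels speak of independent fruits, but nothing in them says whether the 2 arrays of a stage came from separate pools, so p-values measure the spread between these arrays, which may be technical. The probes were designed on the sequenced strawberry genome, and near-identical copies of a gene in the octoploid cultivated species cannot be told apart by a probe. No position or strand accompanied the gene numbers.

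Glycosidases split the bonds between sugars. Beta-galactosidases remove galactose from the galactan side chains of pectin and from arabinogalactans, arabinofuranosidases and beta-xylosidases trim arabinose and xylose from pectin and xylan, and endo-acting xylanases and mannanases cut the backbones of hemicelluloses. Such trimming is part of wall loosening in growing tissue and of fruit softening, and in tomato a beta-galactosidase with galactanase activity and an alpha-mannosidase acting on glycoproteins have both been tied to softening. Plant beta-glucosidases of glycosyl hydrolase family 1 act in large part on small molecules, releasing hormones, lignin precursors, defence compounds and aroma compounds from their glucosides. The list therefore holds enzymes of the wall together with enzymes of glycoproteins and of small glucosides, and its name is that of the text search.

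Each value below is the log2 signal of a gene minus the log2 of the 75th percentile of its array, so that 0 is the brightness of a probe at that percentile. The 4 arrays carried 61657 spots each, with 23658 to 24373 probes well above background and no saturated spot. Arrays of the same stage correlated at 0.994 and 0.995 over 24975 genes tested, and arrays of different stages at 0.818 to 0.82. Transcripts of the red stage markers FaMYB10 (gene31413), FaQR (gene28407) and FaPG1 (gene21638) were higher in red by 7.63, 6.75 and 3.74 log2 units, and all 7 genes for chlorophyll a-b binding proteins were lower, with a median of -7.07. Markers of the achene, such as oleosins, storage globulins and late embryogenesis abundant proteins, were higher in red in 28 of 34 tested and lower in 4, and 15 of the 20 that were storage or oil body proteins were higher. Their summed signal was 0.162% and 0.160% of all signal in red and 0.0654% and 0.069% in green, and 2 of the 34 were not well above background in green. The part of achene RNA in the results that follow was not tested. Housekeeping genes, such as elongation factor 1-alpha and polyubiquitin, were higher in red in 11 of 20 tested and lower in 2. Their median was 0.46, where 37.8% of all genes were higher and 35.1% lower. Whether this came from the scale of the arrays was not tested. Fewer cells of a type and less RNA per cell cannot be told apart in these whole-tissue samples.

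Of the 81 wall glycosidases, 69 were bright enough to be tested, and at an adjusted p under 0.05 in limma 19 were higher in red, 34 were lower and 16 did not pass. Over all genes tested 72.8% passed, 37.8% higher and 35.1% lower, against 76.8%, 27.5% and 49.3% of the members tested. At least 2-fold differences that passed were found in 11 members (15.9%) in the direction of red and 27 (39.1%) in the direction of green, where all genes gave 17.4% and 21.5%, so that 55.1% of the members tested and 39% of all genes differed at least 2-fold in either direction. Differences of at least 8-fold made up 29% of the members tested, 3 higher and 17 lower, and 10.8% of all genes. The median log2 difference was -0.30 over the members tested and 0.04 over all genes. The members' summed signal went the other way, at 0.193% and 0.182% of all signal in red and 0.139% and 0.134% in green. This sum is of signal before the log, so bright genes weigh most in it. The brightest member in red, gene15177, stood at 6.58 and 6.60 there and at 4.10 and 4.05 in green. The brightest in green, gene15210, stood at 5.70 and 5.71 there and at 2.41 and 2.30 in red. The part of single genes in the sum was not tested. The sign of the median turned with the scale, since the authors' normalized matrix put the members at 0.17, but all genes then lay at 0.51. The members' median minus that of all genes was -0.31 to -0.35 under the between-array scalings tried. It was -0.22 with another background correction. Without the filter on dim probes the median was -0.361 over all 81 members and -0.185 over all genes. On leaving out each array, the members' median minus that of all genes was -0.29 to -0.56, the last without green 1. The 2 red and 2 green values did not overlap in 67 members, where 87% of all genes tested did not overlap.

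A gene that was bright in 1 stage alone entered the test only because of that stage. This was the case for 10 members, of which 7 were bright in green and 3 in red, so their selection favoured a difference. Among the 54 members well above background on all 4 arrays, 15 were higher and 24 lower, the median was -0.19, and 20.4% differed by at least 8-fold, 2 higher and 9 lower. The same measure over the 21495 genes that were well above background throughout gave a median of 0.05 and 6.66% at 8-fold or more.

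**Figure D1:**
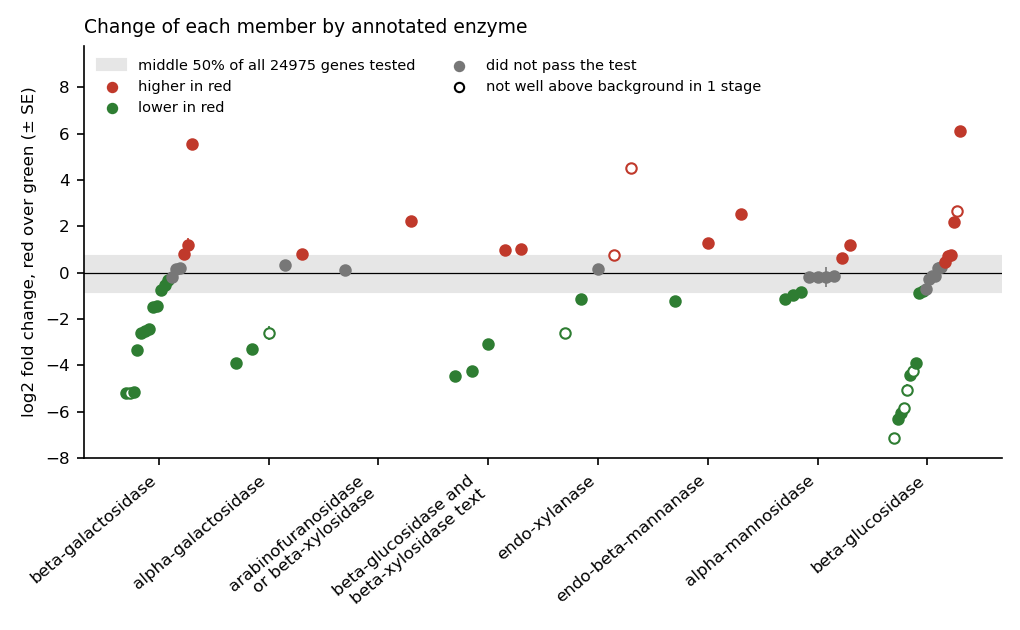
Log2 difference, red over green, of each of the 69 members tested, grouped by annotated enzyme, with bars of ± 1 SE of the limma fit. Red points passed the test as higher in red, green points as lower, grey points did not pass, open points were not well above background in 1 stage, and the grey band spans the 25th to 75th percentile of all genes, from -0.82 to 0.70. Most classes hold points on both sides of 0, the alpha-mannosidases lie near the band, and the beta-glucosidases spread over the widest range.

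Beta-galactosidases formed the largest class of enzymes acting on wall side chains, with 23 members and 18 tested. Transcripts of 12 fell in red and those of 3 rose, while 3 genes did not pass, and the median log2 difference was -1.09. The class held 1 strong rise and 4 falls of at least 10-fold. gene11229 stood at 4.40 and 4.38 on the red arrays and at -1.07 and -1.29 on the green arrays. The red receptacle was therefore 47.6-fold higher (log2 difference 5.57, SE 0.10, adjusted p = 4.25e-05), and the values of the stages were far apart. The study also listed this gene among those that changed both on silencing of the regulator gene FaPRE1 and in ripening. Its ripening data are those of these arrays, so the gene is no independent choice. gene12134 rose far less, from -1.94 and -2.19 in green to -1.32 and -1.17 in red (log2 difference 0.81, SE 0.12, adjusted p = 0.00601).

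Among the falling beta-galactosidases, gene15210 was bright in green, with 5.70 and 5.71, and stood at 2.41 and 2.30 in red. It fell 10.2-fold (log2 difference -3.35, SE 0.07, adjusted p = 5.15e-05) and still lay above the 75th percentile of the array when red. gene14907 fell further, from -0.39 on both green arrays to -5.37 and -5.72 in red, a log2 difference of -5.16 (SE 0.14). gene30476 went from 0.36 and 0.16 in green to -4.84 and -5.02 in red, a log2 difference of -5.19 (SE 0.11). Both were still well above background on the red arrays. gene21868 was not, with -7.91 and -7.85 in red and -2.60 and -2.80 in green, so its decrease is given as at least 19.9-fold. With the other background correction its log2 difference was -1.47. The other 8 decreases ranged from -0.30 in gene14286 to -2.61 in gene12627, and the smallest of them, in gene14286 (adjusted p = 0.0412), lost its call on leaving out any 1 of the arrays (adjusted p = 0.0662 to 0.173).

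For the 3 beta-galactosidases that did not pass, the differences were small. gene23038, which had the smallest difference of the class, stood at -0.87 and -0.94 in red and at -0.96 and -1.14 in green, and its 95% interval ran from -0.12 to 0.41 log2 units. gene06527, bright in both stages with 2.70 on both red arrays and 2.53 and 2.48 in green, differed by 0.19 (adjusted p = 0.0583). gene06528, which carries the next gene number, differed by -0.18. The third rise of the class, in gene12920, rested on weak signal, as 1 of its green arrays was not well above background. Its adjusted p was 0.0242, its call was lost without green 1, and its sign turned with the other background correction.

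**Figure D2:**
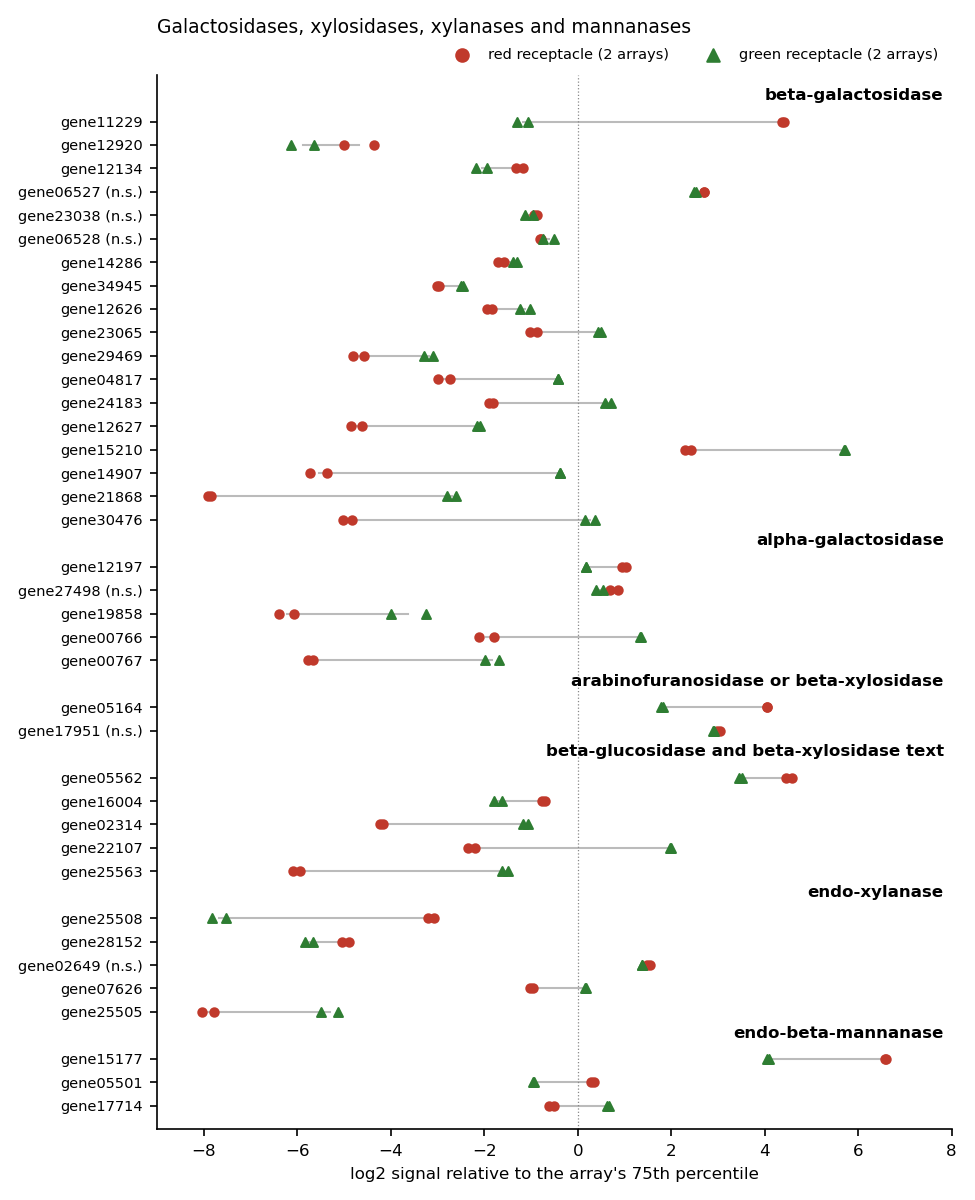
Values of every member tested among the galactosidases, arabinofuranosidase and xylosidase genes, xylanases and mannanases, as log2 signal relative to the 75th percentile of the array. Circles are the 2 red arrays, triangles the 2 green arrays, grey lines join the stage means, and n.s. marks genes that did not pass the test. The red and green points of gene11229 and gene15210 lie at opposite ends of their lines, with red at 4.40 and 4.38 and green at 5.70 and 5.71 respectively as the higher stage.

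Alpha-galactosidases take galactose off galactomannans and off raffinose-type sugars. All 5 were tested, and 3 fell in red while 1 rose. gene00766 and gene00767, which carry consecutive gene numbers, were both lower. The first stood at -1.80 and -2.12 in red and 1.36 and 1.32 in green, a 9.84-fold decrease (log2 difference -3.30, SE 0.13, adjusted p = 0.000169). The second stood at -5.78 and -5.66 in red, where 1 array was not well above background, and at -1.69 and -1.98 in green. The third, gene19858, was dim on both red arrays and 6.05-fold lower as fitted. Its text reads both alkaline alpha-galactosidase and stachyose synthase, an enzyme that builds the same sugars. The single rise was that of gene12197, with 0.96 and 1.03 in red and 0.18 and 0.17 in green (log2 difference 0.82, SE 0.07, adjusted p = 0.00107), and its text also reads alternative oxidase, a mitochondrial enzyme. gene27498 differed by 0.31 and did not pass (adjusted p = 0.062).

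Xylan and arabinan trimming was named by 2 single-name genes and by 6 genes whose text carries both beta-glucosidase and beta-xylosidase names of glycosyl hydrolase family 3, a grouping made after the annotation had been seen. gene05164, annotated as a beta-xylosidase, was bright in both stages and rose from 1.83 and 1.79 in green to 4.04 and 4.05 in red, which was 4.71-fold (log2 difference 2.23, SE 0.06, adjusted p = 8.18e-05). gene17951, annotated as an alpha-L-arabinofuranosidase, was also bright but nearly equal in the stages, with 3.04 and 2.98 in red and 2.92 and 2.89 in green. Its difference of 0.10 had a 95% interval from -0.09 to 0.29 and did not pass (adjusted p = 0.235), although on the authors' matrix, where all genes shifted upward, it did (0.57, adjusted p = 0.00454).

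Of the family 3 genes 5 were tested, and they parted into 2 that rose modestly and 3 that fell strongly. gene05562 stood at 4.58 and 4.46 in red and at 3.45 and 3.51 in green, 2.05-fold higher (adjusted p = 0.000822). Its text also names a subunit of a translation initiation factor. gene16004 rose by 0.98 log2 units, from -1.62 and -1.79 to -0.76 and -0.70. In contrast, gene22107 fell from 1.97 and 1.99 in green to -2.20 and -2.34 in red, a 19-fold decrease (log2 difference -4.25, SE 0.08, adjusted p = 4.27e-05), and gene02314 fell by 3.07. gene25563 fell by 4.45, with 1 of its red arrays not well above background. The stages did not overlap in these 5, as in 87% of all genes tested.

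Endo-acting enzymes of the hemicellulose backbones were few. Mannanases, which cut mannans, numbered 3 and each of them passed the test. gene15177, annotated as an endo-1,4-beta-mannosidase, had 6.58 and 6.60 in red and 4.10 and 4.05 in green, a 5.7-fold increase (log2 difference 2.51, SE 0.06, adjusted p = 6.7e-05), and it too is among the genes that the study listed. gene05501 rose from -0.95 and -0.94 in green to 0.34 and 0.28 in red, a 2.39-fold difference. gene17714 went the other way, from 0.63 and 0.67 in green to -0.62 and -0.52 in red, 2.33-fold lower.

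Xylanases numbered 5, with 2 higher, 2 lower and 1 that did not pass. gene25508 stood at -3.08 and -3.20 in red and was not well above background in green, so its increase is given as at least 10.9-fold, and the fit gave an adjusted p of 8.51e-05. gene28152 was at -4.90 and -5.05 in red and likewise dim in green, 1.72-fold higher as fitted. Its difference turned to -0.26 (adjusted p = 0.06) with the other background correction. gene07626 fell from 0.16 and 0.17 to -0.95 and -1.02, a 2.22-fold decrease (adjusted p = 0.000424). gene25505 was dim in red and at least 3.26-fold lower. gene02649, at 1.55 and 1.47 in red and 1.37 on both green arrays, differed by 0.14 with a 95% interval from -0.05 to 0.33.

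Alpha-mannosidases trim the mannose of glycoproteins in the secretory pathway and the vacuole. Of 10 members 9 were tested, with 2 rises, 3 falls and 4 genes without a call. Their log2 differences ran from -1.15 to 1.20. The median of the sizes was 0.64, against 1.20 over all members tested and 0.75 over all genes tested. gene09481, annotated as a mannosyl-oligosaccharide alpha-mannosidase, stood at 1.66 and 1.65 in red and 0.50 and 0.42 in green, 2.29-fold higher (adjusted p = 0.000399). gene06418, annotated as a lysosomal alpha-mannosidase, rose by 0.64 (SE 0.10). Among the lower genes, gene17280 fell 2.22-fold, from -3.49 and -3.38 to -4.58 and -4.60, gene29049 fell 1.8-fold and gene14589 fell 1.93-fold, the last with pectinesterase names in its text as well. gene05270, with the smallest difference of the class, stood at 1.38 and 1.36 in red and 1.59 and 1.45 in green and had a 95% interval from -0.37 to 0.08. The values of gene06416 overlapped, at -3.64 and -4.10 in red and -4.21 and -3.15 in green, and its SE of 0.42 was the largest of the 69 members.

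**Figure D3:**
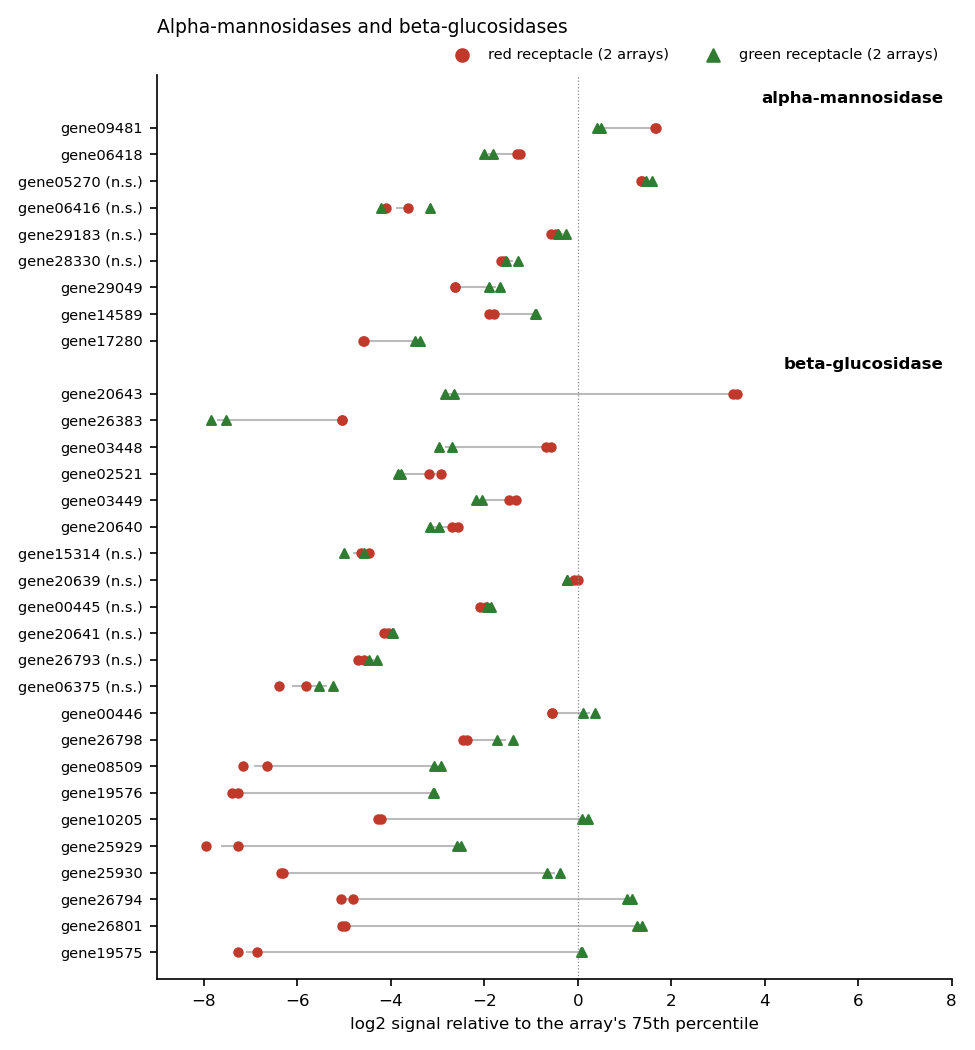
Values of every member tested among the alpha-mannosidases and the beta-glucosidases, as log2 signal relative to the 75th percentile of the array. Circles are the 2 red arrays, triangles the 2 green arrays, grey lines join the stage means, and n.s. marks genes that did not pass the test. The alpha-mannosidase points lie close together, whereas gene20643 spans from -2.66 and -2.84 in green to 3.31 and 3.40 in red and gene26801 from 1.26 and 1.36 in green to -4.98 and -5.04 in red.

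Beta-glucosidases without a xylosidase name made up 26 members, and 22 were tested. A fall in red passed the test for 10 and a rise for 6, and the log2 differences had a median of -0.49 and ran from -7.15 to 6.11. The largest fitted rise of the class was that of gene20643, whose text reads family 1 beta-glucosidase with linamarase and myrosinase names. It stood at -2.66 and -2.84 in green and at 3.31 and 3.40 in red, a 68.8-fold difference (log2 difference 6.11, SE 0.09, adjusted p = 3.45e-05), and the study listed it as well. gene03448 rose 4.61-fold, from -2.97 and -2.69 to -0.57 and -0.68 (adjusted p = 0.000404). gene26383 was dim in green and at least 2.89-fold higher, with -5.06 and -5.05 in red, but with the other background correction its difference was -0.16 and did not pass. The remaining rises, in gene02521, gene03449 and gene20640, lay between 0.44 and 0.76.

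Decreases among the beta-glucosidases were larger, and 8 of the 10 exceeded 8-fold as fitted with the main background correction. gene26801 fell from 1.26 and 1.36 in green to -4.98 and -5.04 in red, an 80.2-fold decrease (log2 difference -6.33, SE 0.07, adjusted p = 3.11e-05). gene26794 fell 66-fold, from 1.06 and 1.15 to -5.06 and -4.82. gene10205 fell 21.2-fold, from 0.21 and 0.09 to -4.29 and -4.22. These 3 were above background on all arrays, and the gap between the stages was larger than the distance between arrays of a stage. The folds depended on the background correction, since with normexp the log2 differences were -4.19 in gene26801, -3.92 in gene26794 and -2.99 in gene10205.

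Another 4 beta-glucosidases were bright in green alone. gene19575 had 0.08 on both green arrays and was at least 129-fold lower in red, and its text names a glucose-6-phosphate translocator of the plastid beside beta-glucosidase. gene25930, with -0.37 and -0.65 in green, was 56.6-fold lower as fitted, with a log2 difference of -2.70 with normexp. The bounds for gene25929 and gene19576 were 22.2-fold and 15.2-fold, but with normexp their log2 differences were -1.50 and -1.35. gene08509, above background on 1 of the red arrays, fell by 3.90 log2 units. The other decreases, in gene00446 and gene26798, were of 0.79 and 0.86. Among the 6 that did not pass, gene00445 differed least, by -0.13, with a 95% interval from -0.37 to 0.11.

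Gene numbers that lie at most 4 apart were taken as neighbours, and whether they are neighbours on a chromosome is not given by the array. The sequence of 5 consecutive beta-glucosidase numbers from gene20639 to gene20643 held 1 strong rise. gene20643 rose 68.8-fold, gene20640 rose 1.36-fold (adjusted p = 0.0231), gene20639 stood at 0.01 and -0.08 in red and -0.24 and -0.23 in green and differed by 0.20 (adjusted p = 0.0612), gene20641 stood at -4.07 and -4.16 in red and -3.98 and -3.96 in green and differed by -0.14 (adjusted p = 0.145), and gene20642 was too dim to be tested. The rise of gene20640 lost its call without red 1 and without green 2, with log2 differences of 0.38 and 0.34. With normexp its difference was 0.02 in limma (adjusted p = 0.822). It also did not pass the methods' t-test after adjustment (adjusted p = 0.0942).

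Beta-glucosidases numbered gene26793 to gene26801 were divided in the same way in the downward direction, with log2 differences of -6.04 in gene26794 and -6.33 in gene26801, of -0.86 in gene26798 and no call in gene26793, which differed by -0.26 (adjusted p = 0.0804). The pairs gene19575 and gene19576, gene25929 and gene25930, gene00766 and gene00767, and gene12626 and gene12627 each fell together, and gene03448 and gene03449 rose together. Other neighbours did not share a call, as gene00446 fell beside gene00445 and gene06418 rose beside gene06416, where gene00445 and gene06416 did not pass, and neither gene06527 nor gene06528 passed. The xylanases gene25505 and gene25508 went in opposite directions, the first lower and the second higher in red. Near-identical neighbours could share probe signal, and no probe sequence was used here to compare them.

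**Figure D4:**
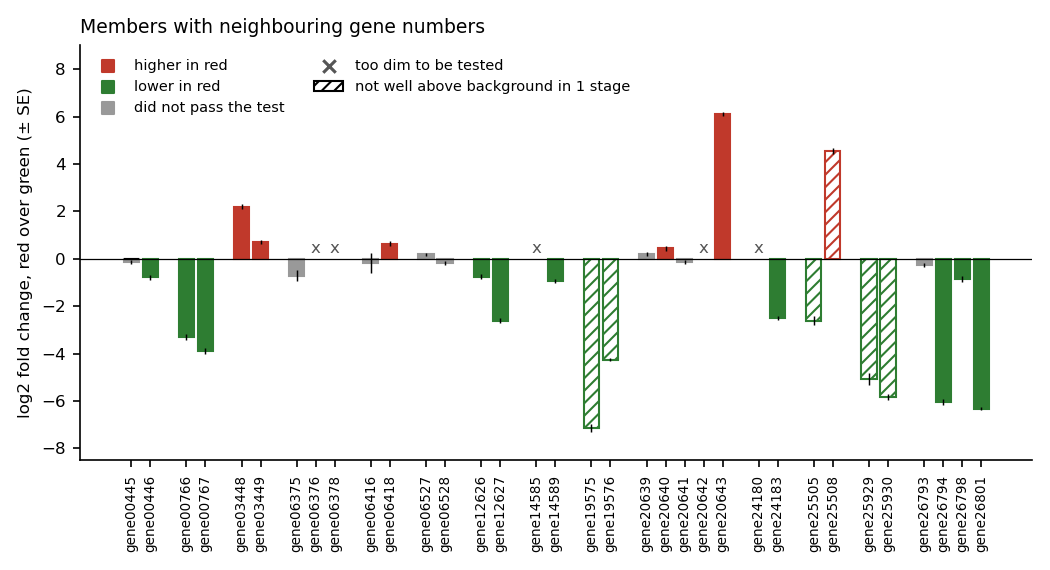
Log2 difference, red over green, of members whose gene numbers lie at most 4 apart, with bars of ± 1 SE and gaps between the sets of neighbours. Red bars passed the test as higher, green as lower, grey did not pass, hatched bars were not well above background in 1 stage, where the fitted value is no bound, and a cross marks genes too dim to be tested. gene20643 rises by 6.11 among neighbours that differ by no more than 0.44, and gene26794 and gene26801 lie at -6.04 and -6.33 beside gene26793 at -0.26.

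The 12 members that were not tested lay between -8.22 and -6.33 on the red and between -7.95 and -6.35 on the green arrays. They were 5 beta-galactosidases, 4 beta-glucosidases, 1 family 3 gene, 1 alpha-mannosidase and 1 chitinase-like gene with a xylanase inhibitor name. For 10 of them no array was well above background, and gene06378 and gene07651 were above it on 1 array. Without the filter on dim probes 1 of the 12 passed, the beta-glucosidase gene20552 (log2 difference 0.83, adjusted p = 0.0497), for which no array was well above background. The precision of the others was set by the number of arrays and by spots. Of the 81 members 80 had a single probe, 24 had 1 spot, 56 had 2 and 1 had 4, and duplicate spots of a probe differed by a median of 0.08 to 0.14 log2 units on an array. The SE of the log2 difference ran from 0.06 to 0.42 with a median of 0.10.

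Other glycoside hydrolases of walls and glycans, found by a second text search that leaves out the members, numbered 72, and 50 were tested. Of these 15 rose in red and 28 fell, and the median log2 difference was -0.46. Those that passed made up 86% of the 50, 30% higher and 56% lower, beside 72.8%, 37.8% and 35.1% of all genes. Genes with a cellulase or endoglucanase name were divided, 8 higher and 9 lower of 18. Most of their texts name beta-1,3-glucanases, and of these genes some rose and some fell. Among the related genes, gene26607 fell by 3.54 (SE 0.07), and its text names a beta-1,3-glucanase. The study names it as a beta-glucosidase that was induced on FaPRE1 silencing, with ripening data from these same arrays. gene06191, an endo-1,4-beta-glucanase, was bright and rose from 3.79 and 3.90 in green to 7.66 and 7.86 in red (log2 difference 3.91, SE 0.10), and gene31843 rose by 4.73. The gene entered as Cellulase1 (gene29283) fell by 1.42. Fucosidase names stood on 16 genes tested, of which 13 fell and 2 rose, but most of these texts also read esterase or GDSL lipase, enzymes that cut lipid and acyl esters. gene13376, whose text reads fucosidase alone, fell by 2.39 (SE 0.34). The 3 genes with a hexosaminidase or acetylglucosaminidase name did not pass, with differences from -0.15 to 0.32.

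Most of the larger differences of the wall glycosidases kept their call under other ways of handling the arrays. Of the 38 members that passed with at least a 2-fold difference, 37 kept their call on the authors' normalized matrix, 38 with quantile normalization and 36 with normexp, another background correction. The exceptions were gene17280 on the matrix (adjusted p = 0.0534) and gene12920 and gene26383 with normexp (adjusted p = 0.0959 and 0.184). Both gene12920 and gene26383 also turned sign with normexp, from higher to lower in red. The size of many differences moved with that correction, in dim genes and also in genes well above background on all 4 arrays. With normexp the log2 difference of gene19575 was -3.34 in place of -7.15, and that of gene25508 was 0.57 in place of 4.54. Among genes above background throughout, gene14907 stood at -2.88 in place of -5.16 and gene30476 at -3.30 in place of -5.19, with their calls kept. Smaller shifts were found for gene02314, at -1.96, gene12627, at -1.40, and gene03448, at 1.46. gene11229, gene20643 and gene15177 rose by 5.18, 5.17 and 2.56 with the same correction.

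**Figure D5:**
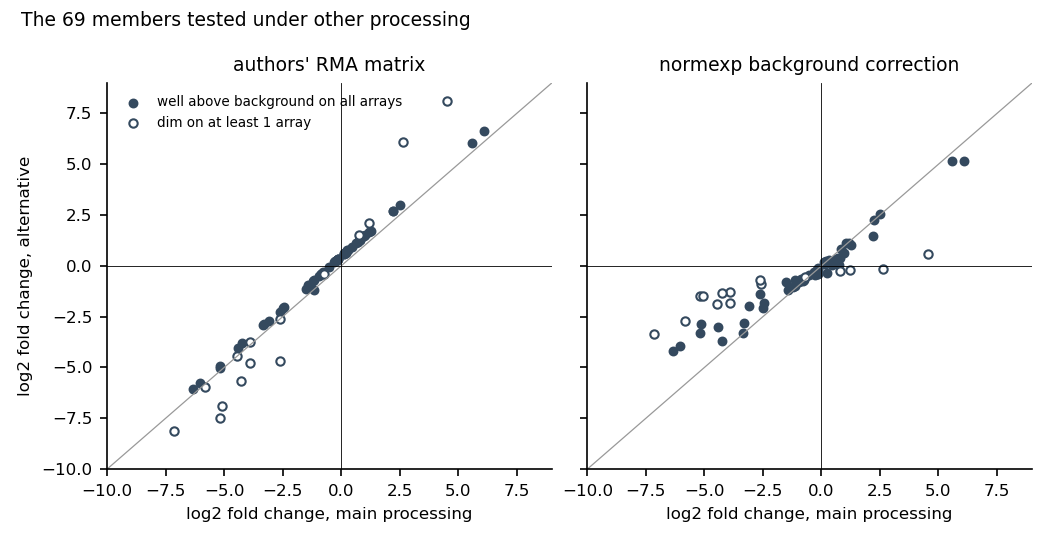
Log2 difference, red over green, of the 69 members tested, with the main processing on the horizontal axes and an alternative on the vertical axes, the authors' RMA matrix on the left and normexp background correction on the right. Filled points were well above background on all 4 arrays, open points were dim on at least 1 array, and the diagonal marks equal values. Filled points lie above the diagonal for the authors' matrix, except gene17280 at -1.21 against -1.15, while with normexp the open points lie closer to 0, gene19575 at -3.34 and gene25508 at 0.57.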

How the data were processed

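Total RNA was labelled with Cy3 and hybridised to 4 custom Agilent arrays, and the deposited scanner files, per the file headers, hold spot intensity read with Agilent Feature Extraction 10.7.3.1 (background-subtracted and spatially detrended). The authors also deposited an RMA matrix of intensity on a linear scale, whose settings are not given in the sources used here, and it served as an alternative. Here log2 of the deposited intensity minus the log2 75th percentile of the array was averaged over spots of a probe and over probes of a gene, without control spots and spots marked as outliers. A probe was kept when at least 2 of the 4 arrays had it well above background, and 40 genes with a missing value were dropped. limma 3.58.1 in R 4.3.3 compared red with green over 24975 genes, two-sided, with Benjamini-Hochberg adjustment at 0.05. The fit had 2 residual degrees of freedom and a prior of 1.81.

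Where a gene was not well above background on either array of a stage, the fold is a bound. It sets the mean of the bright stage against the mean of the dim stage. On each array of the dim stage, the higher of the gene's own value and the lowest value among probes well above background was taken. Where the gene's own values were the higher, as in gene19858, gene25930 and gene28152, this equals the fitted fold and is no bound. The bounds hold for the main background correction only. Red 1 lay on a slide and scan of its own, and red 2 and both green arrays on another. Alternatives were the authors' matrix, quantile normalization, normexp (offset 50, on median signals), other filters, a trend, blocks for slide and replicate number, the methods' t-test and leaving out each array. Named genes were the 3 largest rises and falls of each class among genes bright on all arrays, the 6 largest bounds in each direction, the smallest difference of each class of at least 5, genes the study listed, and runs of at least 3 consecutive numbers. Class was the first keyword in the text, which puts the family 3 genes with the beta-glucosidases. Other members were named after their values were seen. The members and all lists were chosen with earlier results of these data known.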

Additional observations from a re-analysis of the deposited data

How the results depend on the processing

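On the authors' RMA matrix 29 wall glycosidases were higher and 28 lower, and their median turned from -0.30 to 0.17, or to -0.07 after each array of the matrix was centred on its median, a setting chosen after seeing the data. The median was -0.13 with quantile normalization, -0.43 with normexp and -0.53 to -0.24 on leaving out each array. The median of all genes was 0.51 on the matrix, 0.18 with quantile normalization and -0.21 with normexp, and the share of calls over all genes that were higher was 68.8%, 57.3% and 39.9%, beside 51.9%. Of the 69 members tested, 9 turned sign on the matrix, 7 with quantile normalization and 4 with normexp. Among them, gene00445 turned to 0.34, gene05270 to 0.33 and gene20641 to 0.34 on the matrix. With quantile normalization gene20641 turned to 0.32 and gene00445 to 0.175. With normexp gene26383 turned to -0.16 and gene28152 to -0.26. The cause was not tested. At the methods' t-test and thresholds 7 members were higher and 22 lower, 17 related hydrolases were lower, and over all genes 1612 were higher and 2925 lower, since fewer genes pass a log2 limit of 2. At least 2-fold differences were held by 11 members that were higher, and over all genes by 4353 higher and 5381 lower. With genes above background on all arrays 18 related hydrolases were lower, with fewer genes tested. The count of members higher was 18 to 19 and lower 33 to 34 on leaving out each array.

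Same-numbered arrays of the stages did not deviate together (correlation of deviations 0.078 over 24975 genes), so the numbers were not taken as pairs. With the replicate number as a block 19 members were higher and 36 lower, and 52 of 53 calls were kept. A block for the slide, under which red 1 carries no weight, gave 18 higher and 34 lower. The number of arrays limits precision, and genes near background have only a bound or a fold fitted to dim signal.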
